A study of Mus musculus with 6 samples.

Results

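The laminins, the integrins and the proteins that link them to the basement membrane were examined in kidneys of mouse embryos that lack Fat4, an atypical cadherin of the cell surface. Members were chosen by gene symbol: laminin alpha, beta and gamma chains, integrin alpha chains with a numbered symbol, integrin beta chains, the nidogens Nid1 and Nid2, the Fraser complex genes Fras1, Frem1 and Frem2, and the laminin receptors Dag1 and Bcam. This gave 38 genes of the 22667 in the deposited table. Npnt, the nephronectin gene, and integrin alpha chains with a letter in place of a number, such as Itgav, were not members. RNA was sequenced from 3 Fat4+/+ and 3 Fat4-/- embryos at E13.5, on a C57BL6/6 background after 6 backcross generations. The embryos came from 1 pregnant female, and each library held both kidneys of 1 embryo with most of the ureter trimmed away, so that ureteric bud, condensing mesenchyme and stroma were measured together. Fewer cells of a type and less RNA per cell cannot be told apart in such whole kidneys. The sources used here do not state which part of Fat4 the mutation removes, and the genotype is that of the whole embryo, not of a single cell type.

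A basement membrane is a sheet of extracellular matrix under an epithelium or around a vessel. Its laminins are trimers of an alpha, a beta and a gamma chain, nidogens bind laminin to type IV collagen, and cells hold on to the sheet through integrins, which are pairs of an alpha and a beta chain, and through dystroglycan. In the developing kidney these proteins surround the branching ureteric bud and each new nephron epithelium, and they are also the contact surface between the bud and the mesenchyme around it. The receptor made of Itga8 and Itgb1 is carried by the mesenchyme and binds nephronectin in the basement membrane of the bud, and the Fraser complex holds nephronectin in place there. Loss of Itga8, Npnt or a Fraser complex gene is known to impair the first outgrowth of the bud in mice.

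Values are cRPKM, the authors' corrected reads per length of transcript and library size, which are per length and so can be set side by side between genes. The 6 libraries summed to between 473695 and 503223 cRPKM over all genes, and their depth in reads is unknown. Fat4 itself checked the labels: it stood at 16.74, 15.69 and 16.83 cRPKM in wildtype embryos 1, 2 and 3 and at 7.82, 7.20 and 7.49 in mutant embryos 1, 2 and 3, so that 45.7% of the mean level remained. Its log2 fold change was -1.03 (standard error, SE, 0.0476, adjusted p = 0.000155, limma). The kidney genes Pax2, Wt1 and Sall1 summed to 187.9 to 229.0 cRPKM in wildtype embryos and to 231.4 to 256.3 in mutant libraries, and 3 liver markers summed to at most 1.03 in any library. The 4 Y-linked genes measured summed to between 65.3 and 73.0 cRPKM in the 3 wildtype libraries and to 69.6 in mutant 1, but to 0.08 and 0.15 in mutants 2 and 3, so that Y-linked expression was uneven between the genotypes. Wildtype 3 was often the highest library for the members and mutant 2 the lowest, as described with the results.

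Genotypes were compared with limma on log2(cRPKM + 1) for the 12315 genes that averaged 1 cRPKM or more, with Benjamini-Hochberg adjustment over all of them, and a gene was called at an adjusted p under 0.05. Fold changes are on that scale, and for low genes they are smaller than the ratio of the cRPKM values. Of the 38 members 30 passed the minimum and were tested. A single member was called, the laminin gamma chain Lamc3, which fell, and no member was called higher, while 29 did not pass. Over all tested genes 1.43% were called, 0.877% lower and 0.552% higher, so that 1 of 30 members stands near the background. At an unadjusted p under 0.05, 8 members were lower and 1 was higher, against 7.97% and 5.08% of all tested genes. The lower ones were 26.7% of the tested members. The 3 mutant values lay below all 3 wildtype values for 9 members, which is 30% of those tested against 11.0% of all tested genes, and above them for 1 member, against 7.23%. The mutant mean on the log2 scale was lower for 21 of the 30 tested members and higher for 9, that is, lower for 70% of members and 56.8% of all tested genes. The median log2 fold change was -0.06 over the members and -0.01 over all tested genes.

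**Figure D1:**
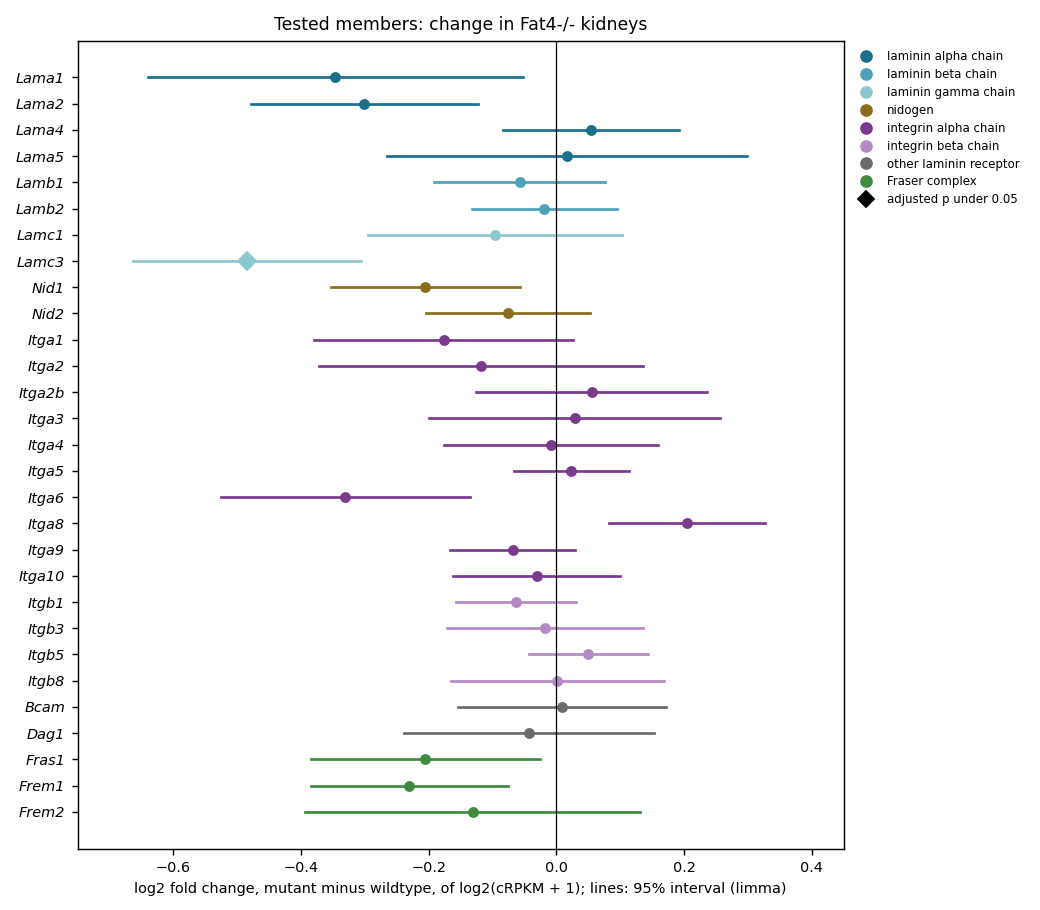
Log2 fold change of 29 of the 30 tested members, mutant minus wildtype on the log2(cRPKM + 1) scale, with its 95% interval from limma, coloured by role. Lamc3 is the single member with an adjusted p under 0.05, and Itga8 is the single member whose interval lies above 0.

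The laminin gamma chains held the called gene. Lamc3, a gamma chain found at the surface of some epithelia and around vessels and nerves, stood at 2.86, 2.44 and 3.00 cRPKM in wildtype embryos 1, 2 and 3 and at 1.70, 1.51 and 1.86 in mutant embryos 1, 2 and 3. Every mutant value was below every wildtype value, and the lowest wildtype library still exceeded the highest mutant library. The mean fell from 2.77 ± 0.291 to 1.69 ± 0.175 cRPKM (SD, n = 3 each), that is, to 61.1% of wildtype. The log2 fold change was -0.48 (SE 0.0780, 95% interval -0.66 to -0.31, adjusted p = 0.0268, limma). The call was lost without any 1 library other than wildtype 2, with adjusted p between 0.0535 and 0.111 in limma, while the unadjusted p without any 1 library reached at most 0.00126. Lamc3 lies on chromosome 2 at 31887291 to 31946539 in GRCm38. The predicted gene Gm13441 overlaps it on the opposite strand, and the sources used here do not state whether the counting used strand. Other members have such overlaps too, among them Itga6, Itga8, Lama2, Nid1 and Fras1. Nid2 is overlapped on the opposite strand by the protein-coding gene Rtraf.

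Lamc1, the gamma chain of most laminins, was abundant and was not called. It stood at 76.34, 74.62 and 89.99 cRPKM in wildtype embryos and at 77.57, 67.18 and 80.33 in mutant embryos, with overlapping groups. The log2 fold change was -0.10 (95% interval -0.29 to 0.10, adjusted p = 0.710, limma). Its share of the summed gamma chains averaged 76.7% in wildtype and 79.1% in mutant embryos, without overlap.

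The alpha chain Lama3 and the beta chain Lamb3 were near absent from these kidneys. Lama3 stood between 0.21 and 0.33 cRPKM and Lamb3 between 0.14 and 0.29 in the 6 libraries. Both were below the minimum for testing.

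**Figure D2:**
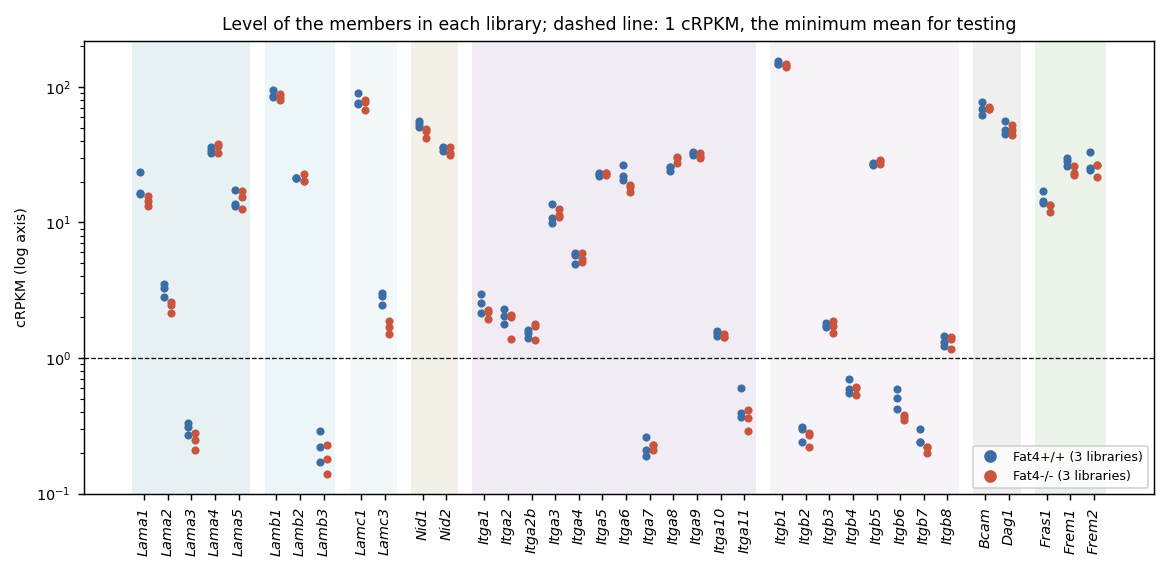
Level of the members in cRPKM on a log axis, with 1 point per library (3 Fat4+/+ and 3 Fat4-/-), grouped by role, and a dashed line at the minimum mean of 1 cRPKM for testing. The levels run from 0.14 cRPKM for Lamb3 to 154.23 for Itgb1, and for most members the points of the genotypes lie together.

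Among the laminin alpha chains, which carry most of the sites that receptors bind, Lama1 and Lama2 had lower mutant values and Lama4 and Lama5 did not. Lama1, the alpha chain of early embryonic and nephron basement membranes, stood at 16.48, 16.30 and 23.54 cRPKM in wildtype embryos 1, 2 and 3 and at 14.34, 13.19 and 15.60 in mutant embryos. All mutant values were below all wildtype values, and wildtype 3 stood well above the other libraries. Its means were 18.8 ± 4.13 and 14.4 ± 1.20 cRPKM (SD, n = 3 each), and its log2 fold change of -0.35 (SE 0.128) gave an adjusted p of 0.297 in limma. Without wildtype 3 the change was -0.18. The gene lies on chromosome 17 at 67697259 to 67822647.

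Lama2, the alpha chain best known from the basement membrane of muscle and nerve, was low. It stood at 3.50, 2.84 and 3.26 cRPKM in wildtype embryos and at 2.61, 2.16 and 2.45 in mutant embryos. The groups did not overlap, and no library stood far from the others of its genotype. Its means were 3.20 ± 0.334 and 2.41 ± 0.228 cRPKM (SD, n = 3 each), 75.2% of wildtype, and its log2 fold change was -0.30 (SE 0.0776, adjusted p = 0.120, limma). The 3 skeletal muscle markers listed summed to 3.19 to 8.49 cRPKM in wildtype embryos and 1.64 to 3.84 in mutant libraries, highest in wildtype 1, where Lama2 was also highest. Among the mutant libraries the muscle sum was highest in mutant 2, where Lama2 was lowest. Their part in the result was not tested.

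Lama4, an alpha chain of vessels and mesenchyme, was the most abundant alpha chain, at 36.02, 34.10 and 32.75 cRPKM in wildtype embryos and 36.71, 32.71 and 37.60 in mutant embryos. Lama5, the alpha chain that replaces Lama1 as glomeruli mature, stood at 13.15, 13.65 and 17.36 in wildtype and at 15.28, 12.46 and 16.96 in mutant embryos. For both genes the groups overlapped and the adjusted p was at least 0.775 in limma. The 95% interval of the log2 fold change was -0.08 to 0.19 for Lama4 and -0.27 to 0.30 for Lama5.

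The laminin beta chains were at near equal levels in both genotypes. Lamb1, the main beta chain of the embryo, stood at 84.10, 85.54 and 95.07 cRPKM in wildtype embryos 1, 2 and 3 and at 84.83, 80.52 and 88.74 in mutant embryos. Its means were 88.2 ± 5.96 and 84.7 ± 4.11 cRPKM (SD, n = 3 each). Lamb2, the beta chain that predominates in the mature glomerulus and at the synapse, stood at 21.3 ± 0.134 and 21.1 ± 1.39 cRPKM. Both overlapped between the genotypes. The 95% intervals were -0.19 to 0.08 for Lamb1 and -0.13 to 0.10 for Lamb2 on the log2 scale.

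The make-up of each chain group was described as the share of each chain in the summed cRPKM of its group, so that a shift common to all chains of a library drops out. Lama1 made up 23.7%, 24.3% and 30.5% of the summed laminin alpha chains in wildtype and 20.7%, 21.7% and 21.4% in mutant embryos, while Lama4 averaged 48.3% and 52.8%. Of 36 shares over all groups, 11 had groups that did not overlap, Lama1 and Lama2 among them. With 3 against 3 embryos the 2-sided exact permutation test cannot go below p = 0.1, which these 11 reached, and their p adjusted over the 36 shares was 0.327.

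**Figure D3:**
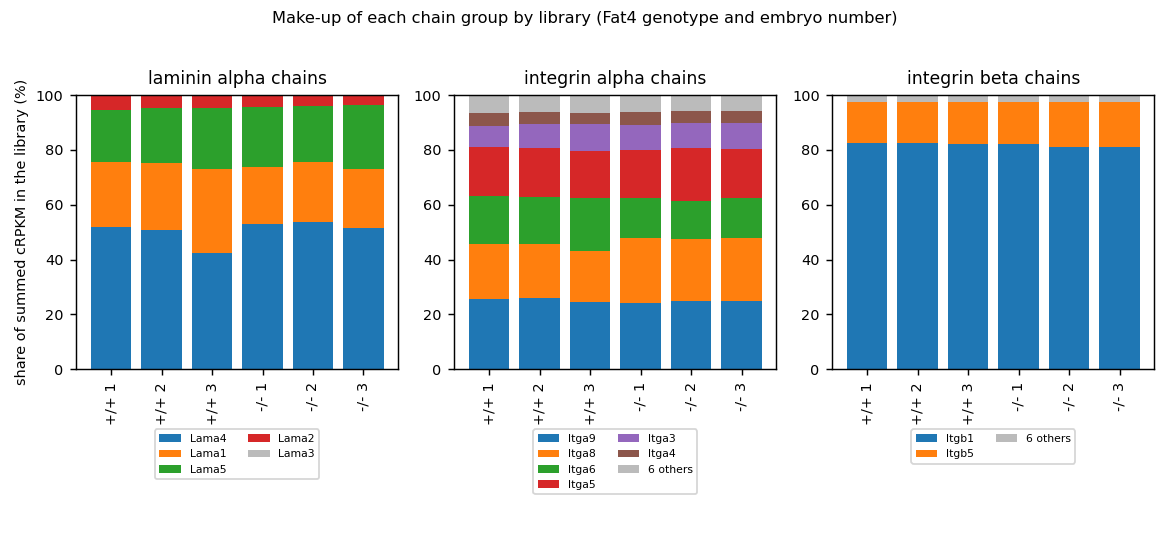
Share in percent of each chain in the summed cRPKM of its group, 1 bar per library, for laminin alpha, integrin alpha and integrin beta chains. The Lama1 share is highest in wildtype 3 at 30.5%, the Itga8 share is higher in each mutant library, and Itgb1 holds 81.0% or more of the integrin beta chains in every library.

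Nid1 and Nid2 encode the nidogens, which bridge laminin and type IV collagen. Nid1 stood at 55.56, 50.52 and 53.25 cRPKM in wildtype embryos 1, 2 and 3 and at 48.74, 41.66 and 47.62 in mutant embryos. The groups did not overlap, and mutant 2 was the lowest library. The means were 53.1 ± 2.52 and 46.0 ± 3.81 cRPKM (SD, n = 3 each), and the log2 fold change of -0.21 (SE 0.0645) gave an adjusted p of 0.210 in limma. Without mutant 2 the change was -0.14. Nid2 stood at 35.41, 33.63 and 35.97 cRPKM in wildtype embryos and 32.47, 31.24 and 35.90 in mutant embryos, with overlapping groups and an adjusted p of 0.641. The summed nidogen level averaged 88.1 cRPKM in wildtype embryos and 79.2 in mutant embryos.

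The Fraser complex genes, named after a human syndrome of hidden eyes, fused digits and missing kidneys, had lower mutant means in all 3 members. Frem1 stood at 28.40, 26.22 and 29.63 cRPKM in wildtype embryos and at 26.11, 22.23 and 23.10 in mutant embryos. Its groups were separated by a narrow gap, with mutant 1 just below wildtype 2. The log2 fold change was -0.23 (SE 0.0674, adjusted p = 0.176, limma). Fras1 stood at 14.40, 13.81 and 16.96 cRPKM in wildtype embryos and at 13.40, 11.88 and 13.40 in mutant embryos, again without overlap and with wildtype 3 the highest. Its log2 fold change was -0.21 (SE 0.0784, adjusted p = 0.308, limma), and -0.12 without wildtype 3.

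Frem2, whose product joins those of Fras1 and Frem1 in the complex, stood at 25.18, 24.57 and 32.81 cRPKM in wildtype embryos and at 26.68, 21.80 and 26.31 in mutant embryos. These groups overlapped, and the log2 fold change of -0.13 had an adjusted p of 0.699 in limma. It was -0.0024 without wildtype 3, -0.04 without mutant 2 and -0.20 without wildtype 2. Frem2 lies on chromosome 3, 14.5 Mb from Fat4, and Itga10 lies 57.6 Mb from it. No other member is on that chromosome, and a part of sequence linked to the mutation in these values was not tested. The relative amounts of the 3 Fraser complex genes differed little: Fras1 made up 21.3% and 20.9%, Frem1 39.9% and 38.7%, and Frem2 38.8% and 40.4% of their sum in wildtype and mutant embryos.

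**Figure D4:**
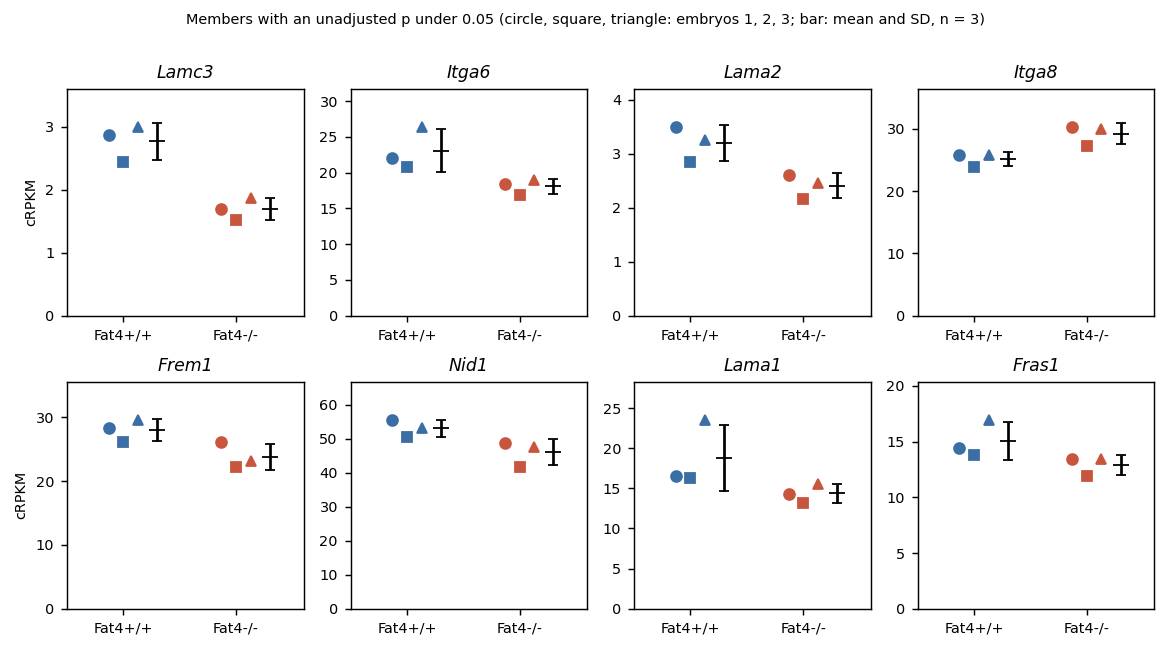
Level in cRPKM of 8 members with an unadjusted p under 0.05, 1 symbol per embryo with the mean and SD of each genotype (n = 3). Itga8 is higher in all 3 mutant embryos and the other 7 are lower in all 3, and wildtype 3 stands above its group for Lama1 and Itga6.

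The integrin alpha chains held the single member that was higher in every mutant embryo. Itga8, the alpha chain of the nephronectin receptor of the nephrogenic mesenchyme, stood at 25.84, 23.90 and 25.85 cRPKM in wildtype embryos 1, 2 and 3 and at 30.34, 27.26 and 29.98 in mutant embryos. All 3 mutant values were above all wildtype values. The means were 25.2 ± 1.12 and 29.2 ± 1.68 cRPKM (SD, n = 3 each), 115.9% of wildtype, and the log2 fold change was 0.20 (SE 0.0535, 95% interval 0.08 to 0.33, adjusted p = 0.127, limma). Its share of the summed alpha chain members was 19.6% ± 0.696 in wildtype and 23.2% ± 0.598 in mutant embryos. Itga8 lies on chromosome 2 at 12106632 to 12301922, where E030013I19Rik overlaps it on the opposite strand.

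Markers of the nephron progenitors, the mesenchymal cells in which Itga8 is known to be expressed, were also higher in sum. The 6 listed genes summed to 223.2 to 267.4 cRPKM in wildtype embryos and 278.4 to 320.8 in mutant libraries. Of the 6, 2 were called higher, Eya1 and Osr1, against 0.552% of all tested genes. Cited1 and Crym overlapped between the genotypes, and the Crym mean was lower in mutant embryos, at 32.6 against 37.5 cRPKM. The part of these progenitor markers in the Itga8 values was not tested. Npnt, which encodes the ligand, stood at 27.83, 30.32 and 35.13 cRPKM in wildtype embryos and 28.12, 24.81 and 29.37 in mutant embryos, with overlapping groups and a log2 fold change of -0.17 (adjusted p = 0.473, limma). Without wildtype 3 it was -0.08 and without mutant 2 it was -0.10.

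Itga6, an alpha chain of laminin receptors on epithelia, had lower mutant values. It stood at 22.05, 20.71 and 26.42 cRPKM in wildtype embryos and at 18.33, 16.85 and 18.99 in mutant embryos, and the groups did not overlap. The means were 23.1 ± 2.99 and 18.1 ± 1.10 cRPKM (SD, n = 3 each), 78.3% of wildtype, and the log2 fold change was -0.33 (SE 0.0851, 95% interval -0.53 to -0.14, adjusted p = 0.119, limma). Its share of the summed alpha chain members was 17.9% ± 1.24 in wildtype and 14.3% ± 0.297 in mutant embryos. Itga6 lies on chromosome 2 at 71745616 to 71858416, where Gm13739 and Gm17250 overlap it on the opposite strand.

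Itga3, the other laminin-binding alpha chain abundant in kidney epithelium, did not share this pattern. It stood at 9.96, 10.85 and 13.59 cRPKM in wildtype embryos and 11.38, 11.03 and 12.50 in mutant embryos, with overlapping groups and a log2 fold change of 0.03 (95% interval -0.20 to 0.26, adjusted p = 0.942, limma). Itgb4, which pairs with Itga6 in hemidesmosomes, was low at 0.55, 0.59 and 0.70 cRPKM in wildtype embryos and 0.61, 0.53 and 0.60 in mutant embryos and was not tested.

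Dag1 and Bcam, laminin receptors that are not integrins, were abundant and overlapped between the genotypes. Dag1, which encodes dystroglycan, stood at 44.87, 48.08 and 55.61 cRPKM in wildtype embryos and 47.71, 44.00 and 52.12 in mutant embryos. Bcam, a receptor for Lama5, stood at 62.25, 68.68 and 77.28 in wildtype and 68.94, 69.06 and 70.75 in mutant embryos. The 95% intervals of the log2 fold changes were -0.24 to 0.15 and -0.15 to 0.17.

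Among integrins for other ligands none had an unadjusted p under 0.05. Itga9, whose receptor binds Vcam1 and tenascin, was the most abundant alpha chain member. It stood at 32.55, 31.67 and 33.32 cRPKM in wildtype embryos and at 30.79, 29.85 and 32.27 in mutant embryos, which overlapped. Itga5, the fibronectin receptor chain, stood at 22.6 ± 0.661 and 23.0 ± 0.447 cRPKM. Itga4, which also binds Vcam1 and fibronectin, stood at 5.54 ± 0.525 and 5.50 ± 0.419 cRPKM. The collagen-binding chains were low: Itga1 averaged 2.55 and 2.13 cRPKM, Itga2 2.04 and 1.82, and Itga10 1.51 and 1.46 in wildtype and mutant embryos. Itga1 had the lowest adjusted p of these genes, 0.459 in limma.

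The beta chains were dominated by Itgb1, the common partner of Itga1 to Itga6 and of Itga8 and Itga9. Itgb1 stood at 154.23, 147.94 and 148.53 cRPKM in wildtype embryos and at 146.94, 143.64 and 140.57 in mutant embryos. The mutant values were all lower, by a small step: the means were 150.2 ± 3.47 and 143.7 ± 3.19 cRPKM (SD, n = 3 each), 95.7% of wildtype, with an adjusted p of 0.582 in limma. Itgb5, a partner of Itgav, stood at 27.64, 26.66 and 27.13 cRPKM in wildtype embryos and 27.06, 29.01 and 28.37 in mutant embryos. Itgb3 averaged 1.75 and 1.72 cRPKM and Itgb8 1.33 and 1.33, all with overlapping groups. Itgb6 and Itgb7 were too low to test, though their groups did not overlap: Itgb6 stood at 0.51, 0.42 and 0.59 cRPKM in wildtype embryos and 0.37, 0.35 and 0.38 in mutant embryos, and Itgb7 at 0.30, 0.24 and 0.24 and at 0.22, 0.20 and 0.22.

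Altogether 8 members stayed under the minimum, namely Itga7, Itga11, Itgb2, Itgb4, Itgb6, Itgb7, Lama3 and Lamb3, with values between 0.14 and 0.70 cRPKM in every library. The mutant mean was lower for 7 of these 8 and higher for 1, and it was lower for 59.6% of the 6420 untested genes with a value above 0. The 21 tested members without an unadjusted p under 0.05 had log2 fold changes between -0.18 and 0.06, and for 12 of them the 95% interval lay within 0.2 of 0 on either side. For the other 9 these data do not fix the change that closely, since their intervals reached as far as -0.39 or 0.30.

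Promoter sequence was read from RefSeq (GRCm38.p6) for the members that have an entry, 25 of 38 genes with 30 promoters, over the 195 bases from 250 to 56 before the transcript start. The stretches of Itga8, the single member higher in every mutant embryo, and of Lama2 and Nid1, both lower in every mutant embryo, are shown 5′ to 3′ on the gene's strand, to set the members that differed in direction side by side. Capitals mark a match, on either strand, to the GC box GGGCGG or to GGAATG, a site of the TEAD factors that act with the Hippo pathway.
Itga8, chr2:12302000-12302194, strand -: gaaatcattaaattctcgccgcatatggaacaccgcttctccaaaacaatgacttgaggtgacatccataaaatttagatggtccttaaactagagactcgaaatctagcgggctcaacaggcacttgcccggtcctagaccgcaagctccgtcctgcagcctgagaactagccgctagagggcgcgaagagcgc
Lama2, chr10:27616998-27617192, strand -: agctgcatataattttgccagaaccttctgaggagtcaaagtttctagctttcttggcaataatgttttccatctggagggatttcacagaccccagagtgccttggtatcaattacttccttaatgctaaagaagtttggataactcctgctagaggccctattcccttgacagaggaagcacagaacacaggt
Nid1, chr13:13437352-13437546, strand +: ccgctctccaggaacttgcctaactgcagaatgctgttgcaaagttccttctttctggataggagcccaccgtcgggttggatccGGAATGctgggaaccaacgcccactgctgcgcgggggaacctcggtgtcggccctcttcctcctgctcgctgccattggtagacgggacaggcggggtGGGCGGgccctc

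Nid1 held 1 match to GGGCGG and 1 to GGAATG, while Itga8 and Lama2 held neither. The promoters of Frem1, also lower in every mutant embryo, are not shown and held neither of these matches. The Lama2 stretch lies inside the annotated span of the gene, 26980036 to 27619758 on chromosome 10. It therefore precedes an inner start of Lama2 and not the outermost one. The matches in Nid1 did not overlap each other. The motifs searched, on both strands and each counted on its own, were GGGCGG, the TATA box TATAAA, the E-box CAGGTG of the Snail and Zeb factors, and the TEAD site GGAATG. The GC box was in 11 of the 30 member promoters and in 23.8% of all 32851 promoters, the TATA box in 0 and 8.95%, the E-box in 7 and 14.2%, and the TEAD site in 4 and 10.4%. The 4 with a TEAD site belonged to Frem2, Itga10, Lamb3 and Nid1.

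Wildtype 3 was often the highest library for the members, and mutant 2 was often the lowest. Wildtype 3 was the highest of the 6 libraries for 18 of the 30 tested members (60%) and for 20.4% of all tested genes, and mutant 2 was the lowest for 19 (63.3%) against 22.0%. The median difference of the members from the wildtype mean on the log2 scale was 0.00, -0.07 and 0.06 in wildtype embryos 1, 2 and 3 and -0.04, -0.14 and -0.03 in mutant embryos, whereas the medians of all genes lay between -0.02 and 0.01. Among the 9 members with an unadjusted p under 0.05, wildtype 3 was the highest wildtype library for 7 and mutant 2 the lowest mutant library for 9.

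Leaving out wildtype 3 and mutant 2 together, an alternative chosen after the data were seen, left the median of the members at -0.01 and that of all genes at -0.02. These were the libraries most often highest and most often lowest for the same members. An upward move of the members' fold changes was therefore built into that choice, and no conclusion is drawn from it. In that comparison no member was called, and 4 members were lower and 3 higher, Itga8, Lama5 and Itga3, at an unadjusted p under 0.05. Lama5 was at 0.25 and Itga3 at 0.18 (adjusted p = 0.136 and 0.256, limma), against 0.02 and 0.03 in all 6 libraries. Lamc3 was then at -0.39 and Itga8 at 0.27 (adjusted p = 0.102 and 0.0763, limma), and Itga6 was at -0.19, Lama2 at -0.24 and Nid1 at -0.13. Lama1 was at -0.12, Frem1 at -0.15 and Fras1 at -0.07, each with an unadjusted p above 0.05.

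**Figure D5:**
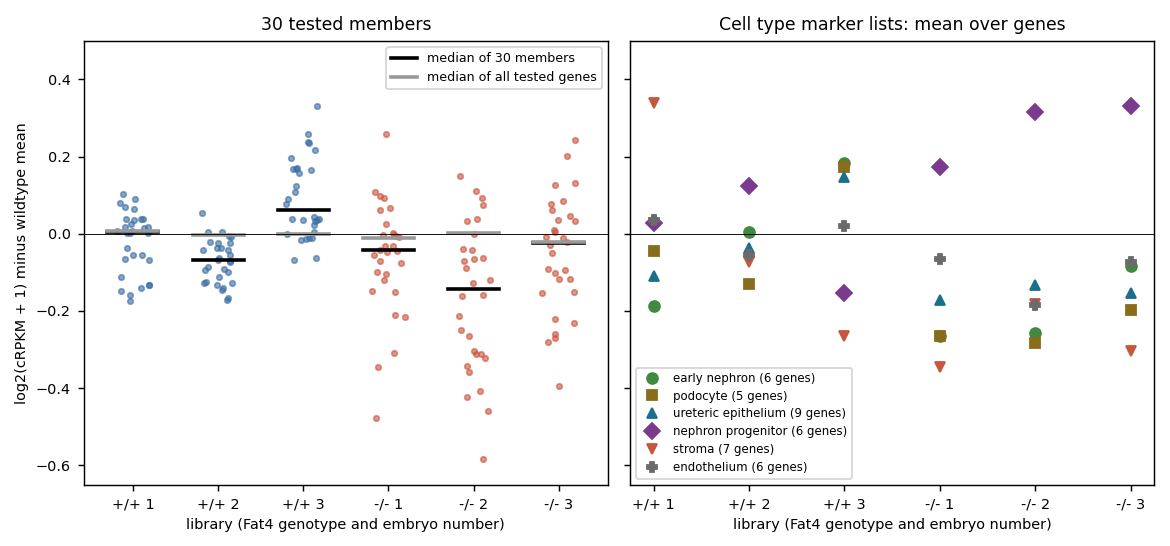
Left, log2(cRPKM + 1) of each of the 30 tested members minus its wildtype mean, by library, with the medians of the members (black) and of all tested genes (grey). Right, the same difference averaged over 6 marker lists, where early nephron, podocyte and ureteric lists peak in wildtype 3 and the nephron progenitor list is highest in the 3 mutant libraries.

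Marker lists of the kidney's cell types also differed between libraries. The 6 early nephron genes summed to 264.1, 293.2 and 323.5 cRPKM in wildtype embryos 1, 2 and 3 and to 251.4, 254.4 and 280.7 in mutant embryos. The 5 podocyte genes summed to 26.7 to 35.4 in wildtype and 21.8 to 25.4 in mutant libraries, with Nphs1 at 0 in mutant 2, and the 9 ureteric epithelium genes to 239.9 to 281.7 and 230.0 to 239.1. Among the mutant libraries the podocyte list was lowest in mutant 2, the early nephron list in mutant 1 and the ureteric list in mutant 3. All 3 lists were highest in wildtype 3, the library in which Lama1 and Itga6 were highest. The 7 stroma genes summed to 263.2 to 358.3 and 246.9 to 272.2, highest in wildtype 1. Of the 7, 1 was called lower, Pdgfra, against 0.877% of all tested genes. Tcf21 was lower in every mutant library but was not called, and Foxd1, Meis1, Dcn, Lum and Postn overlapped between the genotypes. The 6 endothelium genes summed to 132.7 to 140.7 and 123.8 to 134.7. The part of these cell types in the values of the members was not tested.

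Y-linked expression was also uneven, and it was added to the model as a covariate. It was high in all 3 wildtype libraries and in mutant 1, and near 0 in mutants 2 and 3. The genotype term of that fit therefore rests on mutant 1 alone against the wildtype libraries, so only its effect sizes are given. Lamc3 stood at -0.47 and Itga8 at 0.26 on the log2 scale. Itga6 was at -0.31 and Lama1 at -0.35, Lama2 moved to -0.21, Fras1 to -0.15, Nid1 to -0.12 and Frem1 to -0.10.

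A further 84 basement membrane and adhesion genes of the same pathways were counted beside the members. Of these 66 were tested: 1 was called lower and 0 higher, against 0.877% and 0.552% of all tested genes. The median log2 fold change was -0.02. The called gene was Vcam1, a cell surface ligand of integrins with Itga4 or Itga9. Vcam1 lies on chromosome 3, 77.1 Mb from Fat4, and a part of sequence linked to the mutation in its values was not tested. Vcam1 stood at 9.49, 8.36 and 9.01 cRPKM in wildtype embryos and at 5.49, 5.61 and 5.60 in mutant embryos, and its log2 fold change was -0.60 (SE 0.0521, adjusted p = 0.00297, limma). At an unadjusted p under 0.05, 7 of the 66 (10.6%) were lower and 4 higher, against 7.97% and 5.08% of all tested genes.

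Of the other ligands and adaptors, Mfge8, a secreted ligand of Itgav integrins, stood at 66.22, 68.05 and 66.04 cRPKM in wildtype embryos and at 74.10, 81.42 and 78.90 in mutant embryos (log2 fold change 0.22, adjusted p = 0.0599, limma). Fermt1, an epithelial kindlin that switches on integrins, stood at 1.34, 1.09 and 1.55 cRPKM in wildtype embryos and 0.76, 0.69 and 0.83 in mutant embryos (log2 fold change -0.40, adjusted p = 0.0699, limma). Neither passed the threshold, and in both the groups did not overlap. Fn1, which encodes fibronectin, the ligand of Itga5, stood at 121.97, 112.88 and 124.64 cRPKM in wildtype embryos and 103.71, 85.92 and 112.23 in mutant embryos (log2 fold change -0.26, adjusted p = 0.272, limma), lowest in mutant 2, without which the change was -0.15. The other 7 with an unadjusted p under 0.05 had adjusted p between 0.143 and 0.364 in limma. Of these the matrix gene Tinagl1 was at -0.23, the dystroglycan partners Sgcb and Sgce at -0.14 and -0.12 and the kindlin Fermt2 at -0.12 on the log2 scale. Zyx, a focal adhesion protein, was at 0.16, the matrix ligand Tnc at 0.20 and the collagen chain Col4a5 at 0.12. Itgav, the alpha partner of Itgb5, Itgb6 and Itgb8, averaged 24.1 and 23.2 cRPKM with overlapping groups.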

How the data were processed

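RNA of 3 Fat4+/+ and 3 Fat4-/- embryos was sequenced, 1 library per embryo. Per the labels, total RNA was extracted with TRIzol. Bowtie and the mouse build mm9 are named in the submitters' processing notes, with no Bowtie version. The authors deposited a table of cRPKM, RPKM values after a correction that the sources used here do not describe, for 22667 genes, 21553 of them with a value. The numbers of reads behind the values are unknown, so no count test was run.

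Groups came from the genotype labels. The 12315 genes that averaged 1 cRPKM or more were compared with limma 3.58.1 (R 4.3.3) after adding a pseudocount of 1 and taking log2. The test was 2-sided, with a mean-variance trend, genotype as the only term and Benjamini-Hochberg adjustment. Shares of chain groups were tested with a 2-sided exact permutation test. All embryos came from 1 litter, and p-values measure the spread between these embryos. The test was checked on simulated data. The members and gene lists were chosen with earlier results of these data known. Values in every library are given for members with an unadjusted p under 0.05 or without overlap of the groups, the most abundant member of each role and 15 members set by name, and of the other adhesion genes those with an unadjusted p under 0.05 and Npnt are named. Positions are from GENCODE M21 (GRCm38), and promoters from RefSeq (GRCm38.p6). The values of 1 member are not reported here; the counts over the members include it. In all, 15 alternatives were fitted.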

Additional observations from a re-analysis of the deposited data

How the results depend on the processing

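Each value was recomputed under 15 alternatives. The 9 members with an unadjusted p under 0.05 kept their direction under all of them that tested the gene, and Lamc3 and Itga8 also kept an unadjusted p under 0.05. Lamc3 was the 1 member called lower. With equal sums of cRPKM, with a minimum of 5 cRPKM (where Lamc3 was not tested) and with no minimum, 0 were called lower. The same held without wildtype 3 and mutant 2 together, an alternative chosen after the data were seen. Counts with the Y-linked covariate are not given, since its genotype term rests on mutant 1 alone. Leaving out 1 library gave 0 to 1 called lower. With library weights 1 member, Itga8, was called higher. Vcam1 was the 1 other adhesion gene called lower. Leaving out 1 library left 1 to 2 of the other adhesion genes called lower. The cause of these shifts was not tested. Over all genes, 176 were called, but 101 with equal sums, 32 with no minimum, 109 with the minimum of 5, 78 without wildtype 3 and mutant 2, and 24 to 132 without 1 library. In all, 16 members had a reversed sign somewhere, all of them with an unadjusted p above 0.05 as reported.

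Pairing by embryo number was not settled by these values or by the labels. In the deposited columns each wildtype library comes directly before the mutant library of its number. The labels do not state that such libraries belong together. The correlation of deviations was 0.0985, 0.205 and 0.277 where the numbers matched, and -0.373 to 0.227 where they differed. Wildtype 2 and wildtype 3 each correlated best with the mutant of their own number. Wildtype 1 instead correlated best with mutant 2 (0.227), and mutant 1 with wildtype 3 (0.106). With the number as a replicate block, 3 members were called lower (Itga6, Lama2 and Lamc3) and 1 higher (Itga8), 2 of the other adhesion genes lower and 1 higher, and 273 genes in all.

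Log2 fold changes that changed sign were as follows. With the Y-linked covariate Itga2 was at 0.028, Itga3 at -0.0007, Itga4 at 0.095, Itga5 at -0.0058, Itgb5 at -0.0032 and Bcam at -0.0062. Quantile normalisation put Itga10 at 0.033, Itga4 at 0.025 and Itgb3 at 0.044, library weights put Itga4 at 0.073, and equal sums put Itgb8 at -0.0002. Without wildtype 3 and mutant 2, Frem2 was at 0.088, Itga2 at 0.064, Itga2b at -0.026, Itga4 at 0.054, Itgb8 at -0.022, Lamb1 at 0.032, Lamb2 at 0.0024, Lamc1 at 0.064 and Dag1 at 0.10. Leaving out 1 library gave ranges of -0.19 to 0.0019 for Itga2, -0.059 to 0.15 for Itga3, -0.075 to 0.037 for Itga4, -0.063 to 0.033 for Itgb3, -0.033 to 0.053 for Itgb8, -0.077 to 0.13 for Lama5, -0.070 to 0.0074 for Lamb2, -0.066 to 0.088 for Bcam and -0.11 to 0.042 for Dag1. Unknown depth leaves the precision of members under 1 cRPKM unknown.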

Other observations

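Members of blood and muscle lineages were low. Itga2b, the platelet integrin chain, stood at 1.54, 1.61 and 1.40 cRPKM in wildtype and at 1.71, 1.79 and 1.36 in mutant embryos, and 5 megakaryocyte and platelet markers summed to 4.29 to 5.46 cRPKM in wildtype and 4.02 to 6.74 in mutant libraries. Both were highest in mutant 2. Itgb2 and Itgb7, beta chains of leukocytes, stood at 0.22 to 0.31 and 0.20 to 0.30 cRPKM, beside 5 macrophage and leukocyte markers that summed to 12.96 to 14.63 in wildtype and 13.13 to 14.15 in mutant libraries. Itga7, the laminin receptor chain of muscle, stood at 0.19 to 0.26 cRPKM.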
